A study of Mus musculus with 34 samples.

Results

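Of the 78298 genes in the count table, 10 were taken here: the glutathione transferases Gsta1, Gsta2, Gsta4, Gstm1, Gstm2, Gstm3 and Gstp1, and the NRF2 (Nfe2l2) target genes Nqo1, Gclc and Ugdh. Each symbol matched a single row of the table, and all 10 genes passed the filter on low counts. The set was chosen around Gsta1, which was selected on its value in the 24-hour livers, where the SIRT1intKO level is far above the WT level. The values of the 10 genes in SIRT1intKO against WT at 24 h are therefore given as a description with no test, and Gsta1 is tested in no comparison that uses the 24-hour livers.

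Bulk RNA sequencing was performed on 34 mouse livers, unoperated or taken after partial hepatectomy (PHx), in 6 groups of genotype and time. In PHx the left lateral and median lobes, 70% of the liver, are taken out. All mice were 8- to 12-week-old males of C57/Bl6 background carrying Sirt1 alleles with floxed exon 4. WT littermates had the floxed alleles without Cre, and SIRT1intKO mice also carried a Villin-Cre transgene, whose promoter drives Cre in gut epithelial cells. Livers were unoperated (0 h; 6 WT and 6 SIRT1intKO) or taken 6 h (6 WT and 5 SIRT1intKO) or 24 h after PHx (4 WT and 7 SIRT1intKO). The question was how these detoxification genes behaved in the regenerating liver of each genotype.

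Glutathione transferases join glutathione to reactive and foreign compounds and are abundant in hepatocytes, with the alpha (Gsta), mu (Gstm) and pi (Gstp) classes as the main cytosolic families. Many of them, with the quinone reductase Nqo1 and the catalytic subunit of glutamate-cysteine ligase, Gclc, are known targets of NRF2, a transcription factor that KEAP1 marks for degradation until electrophiles or oxidants modify KEAP1. NRF2 then binds, with a small MAF partner, to the antioxidant response element of its targets.

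The promoters are shown because the estimated levels of Gsta1 went with those of a near copy, Gsta13, and not with those of Gsta2. Most read-length runs of Gsta1 transcripts also occur in Gsta13, as given below, so their levels are not separate measurements. The part of shared reads in this likeness was not tested. All windows run from 250 bases before to 50 bases after the RefSeq start, on GRCm38.p6: chr9:78230419-78230718 (plus strand) for Gsta1, chr9:78256879-78257178 (plus strand) for Gsta13, listed in RefSeq as Gm3776 and matched by its Ensembl identifier, and chr9:78347096-78347395 (minus strand) for Gsta2. The Gsta1 and Gsta13 windows are the same sequence shifted by 13 bases, and of 287 aligned bases 3 differed, G53A, G247T and T277G, counted from 1 at the 5′ end of the Gsta1 window. Those 3 bases are in capitals in both. Of 287 aligned bases of Gsta1 and Gsta2, 239 (83.3%) were identical, and capitals in the Gsta2 window mark bases with no identical partner in Gsta1.
Gsta1: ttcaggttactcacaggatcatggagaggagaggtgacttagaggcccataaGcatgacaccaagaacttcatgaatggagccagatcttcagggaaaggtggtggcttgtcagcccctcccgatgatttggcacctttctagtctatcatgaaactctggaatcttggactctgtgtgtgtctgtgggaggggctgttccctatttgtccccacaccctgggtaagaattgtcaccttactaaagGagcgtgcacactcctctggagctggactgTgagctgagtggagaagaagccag
Gsta13: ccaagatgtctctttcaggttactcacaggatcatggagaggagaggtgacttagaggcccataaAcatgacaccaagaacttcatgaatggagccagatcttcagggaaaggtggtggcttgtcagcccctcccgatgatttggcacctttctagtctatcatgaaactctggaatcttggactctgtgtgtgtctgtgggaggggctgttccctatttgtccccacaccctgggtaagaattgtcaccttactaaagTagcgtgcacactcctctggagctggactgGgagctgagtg
Gsta2: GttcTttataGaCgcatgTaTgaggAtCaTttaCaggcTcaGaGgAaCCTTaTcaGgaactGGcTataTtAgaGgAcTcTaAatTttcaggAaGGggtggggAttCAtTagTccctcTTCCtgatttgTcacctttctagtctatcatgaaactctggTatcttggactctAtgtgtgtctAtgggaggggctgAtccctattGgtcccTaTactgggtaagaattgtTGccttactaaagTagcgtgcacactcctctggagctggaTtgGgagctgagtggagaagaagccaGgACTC

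The core of the antioxidant response element, TGACNNNGC, was searched on both strands; no other motif was searched. It occurred in 4071 of 32851 promoter windows of the same length (12.4%). RefSeq windows were found for 8 of the 10 genes, not for Gsta4 and Gclc, and of these only Ugdh held the core, as TGACTTAGC on its own strand 132 bases before the start and TGACCACGC on the opposite strand 94 bases before the start. The Ugdh window, chr5:65435793-65436092 (minus strand), is printed with both matches in capitals. A match is a description of letters, and a window with none says nothing on NRF2 binding elsewhere in the gene.
Ugdh: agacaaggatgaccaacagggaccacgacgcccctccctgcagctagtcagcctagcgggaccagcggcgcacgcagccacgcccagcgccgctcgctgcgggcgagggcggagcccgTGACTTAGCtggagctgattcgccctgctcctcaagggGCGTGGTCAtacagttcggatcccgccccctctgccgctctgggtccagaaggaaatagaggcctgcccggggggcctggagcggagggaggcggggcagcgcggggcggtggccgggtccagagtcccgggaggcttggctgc

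Libraries held 14892122 to 23480492 assigned counts, with a median of 16807340. The 24-hour livers did not form compact groups. On the first principal component of all genes (40.7% of the variance), WT 24 h replicates 1 and 2 lay at -86.21 and -95.94, near 6 of the SIRT1intKO 24 h livers (-80.28 to -49.65), whereas WT 24 h replicates 3 and 4 lay at 8.02 and 17.64 and SIRT1intKO 24 h replicate 5 at -8.10. The genotype labels were taken as given, and liver Sirt1 does not check them, so a wrong label among these livers would change the WT values at 24 h. Some of the values that rest on these livers, not all, are therefore also given without them. At 24 h, WT replicates 3 and 4 and SIRT1intKO replicate 5 also carry library names close together in number. WT replicate 2 carries the name next to theirs and lay far from them. A link between library names and position was not tested. The WT 24 h group is analysed here with 4 livers; 1 column of the table that matched no library was not used, and whether it belongs to this group was not established. The 0-hour libraries carry names from another number series than the post-PHx libraries, so time and library series cannot be told apart in comparisons with 0 h; 24 h against 6 h and the genotype comparisons lie within 1 series. The 7 hepatocyte markers summed to 28400 to 78800 CPM (counts scaled to the library total) in every liver. Of 5 intestinal epithelium genes, Vil1, Cdx2 and Muc2 were under 1 CPM in every liver, while Fabp2 ran from 23.2 to 307 CPM and Lgals4 from 5.58 to 35.4 CPM.

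Levels below are CPM after scaling by the trimmed mean of M values (TMM), as mean ± SD with the number of livers, and are compared within a gene only. Gsta1, an alpha-class transferase, was at 2.68 ± 1.74 CPM (n = 6) in WT and 1.71 ± 0.747 (n = 6) in SIRT1intKO livers at 0 h, 1.33 ± 0.903 (n = 6) and 3.55 ± 3.91 (n = 5) at 6 h, and 5.53 ± 4.99 (n = 4) and 72.4 ± 43.2 (n = 7) at 24 h. From high to low the groups ranked SIRT1intKO 24 h, WT 24 h, SIRT1intKO 6 h, WT 0 h, SIRT1intKO 0 h and WT 6 h, and each neighbouring pair below the top overlapped. The WT 24 h livers had 8.67, 10.9, 1.83 and 0.747 CPM. The 7 SIRT1intKO 24 h livers had 46.9, 107, 57.9, 58.9, 10.9, 144 and 81.4 CPM. The WT livers split into replicates 1 and 2, which were higher, and replicates 3 and 4, which lay within and below the WT range at 0 h, and the lowest SIRT1intKO liver, replicate 5, met the highest WT liver. The fitted difference of SIRT1intKO against WT at 24 h was 3.72 on the log2 scale, or 13.2-fold, which is the value that chose the set. It was 3.10 without the 3 livers apart on the first component (WT replicates 3 and 4, SIRT1intKO replicate 5) and 5.81 without WT replicates 1 and 2.

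**Figure D1:**
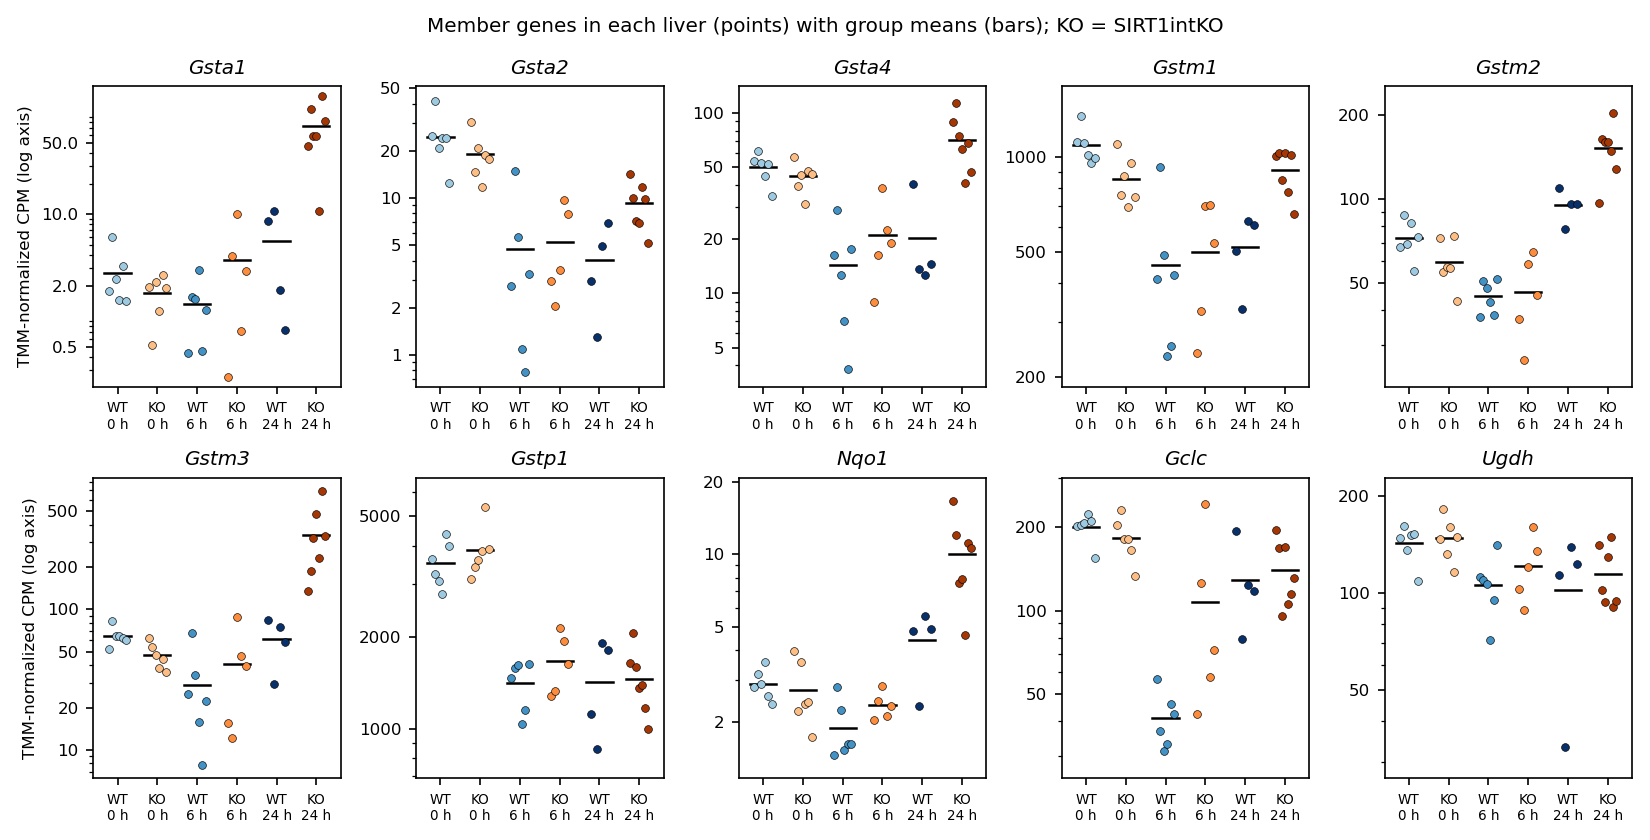
TMM-normalized CPM (log axis) of the 10 genes in 34 livers, 1 point a liver and a bar for each group mean, by genotype and hours after PHx (KO is SIRT1intKO). Gsta1 lies at 46.9 CPM or more in 6 of the 7 SIRT1intKO 24 h livers, while the 4 lowest values of Gclc are those of WT livers at 6 h.

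Against 0 h, the fitted Gsta1 difference at 24 h was 5.40 on the log2 scale in SIRT1intKO and 1.02 in WT livers, and in WT it was -1.07 without replicates 1 and 2 and 1.89 without replicates 3 and 4 (with SIRT1intKO replicate 5 also left out). At 6 h against 0 h, Gsta1 did not pass the test in WT (-0.99 ± 0.685 SE, edgeR adjusted p = 0.267) or in SIRT1intKO livers (1.04 ± 0.686, adjusted p = 0.235). The 5 SIRT1intKO livers at 6 h had 0.257, 3.94, 10, 0.728 and 2.82 CPM and the WT livers 0.438 to 2.88 with a median of 1.33, so replicates 2 and 3 of SIRT1intKO lay above every WT liver and replicate 1 below every WT liver.

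Part of the Gsta1 level cannot be assigned to Gsta1 alone. Of the runs of 100 bases in Gsta1 transcripts, the length of a read, 71.3% also occur in Gsta13, 19.8% in Gsta2 and 13.3% in Gm10639. Salmon splits reads between such genes by estimation. At 6 h against 0 h in SIRT1intKO livers Gsta13 passed the test as higher (1.87, adjusted p = 0.0473), with 0.321 to 7.36 CPM at 6 h and 0.199 to 0.983 at 0 h. The call was close to the threshold and rested on few counts, 5 to 117 a library at 6 h and 3 to 15 at 0 h. At 6 h, replicates 1 and 4 (0.321 and 0.425 CPM) lay inside the 0-hour range. Gsta13 had 4.82 ± 3.74 CPM (n = 4) in WT and 56.7 ± 39.7 (n = 7) in SIRT1intKO livers at 24 h, a fitted difference of 3.56. It is given with no test because most runs of Gsta1 also occur in Gsta13 and Gsta1 was selected on its 24-hour value. Gsta1 took 51.6 to 60.9% of the counts of both genes in the SIRT1intKO 24 h livers, and 29.4 to 59.0% in the WT 24 h livers. The summed level of both was 2.54 to 20.5 CPM in WT and 19.8 to 279 CPM in SIRT1intKO livers at 24 h, with the lowest SIRT1intKO liver just under the highest WT liver. With Gsta1, Gsta2 and Gsta13 summed into 1 feature the 24-hour difference was 3.27, and with Gsta1 and Gsta2 summed it was 3.10.

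**Figure D2:**
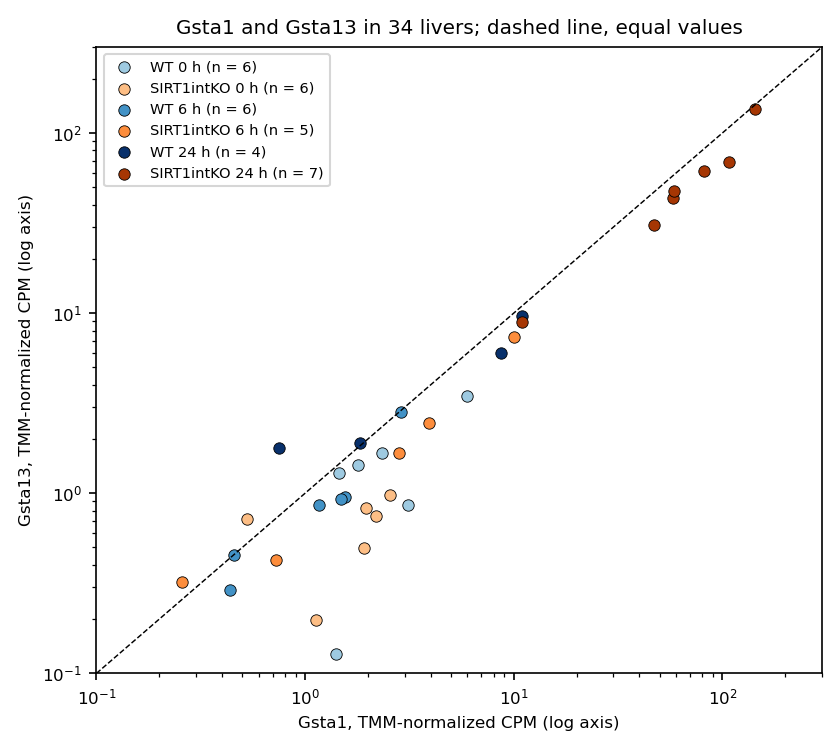
TMM-normalized CPM of Gsta13 against Gsta1 (log axes) in 34 livers, 1 point a liver coloured by group, with the line of equal values dashed. The 7 SIRT1intKO 24 h livers run up along the line to 144 CPM of Gsta1 and 135 CPM of Gsta13.

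Most of the 10 genes were lower at 6 h than at 0 h in WT livers, and fewer passed in SIRT1intKO livers. A gene passed the test at a Benjamini-Hochberg adjusted p under 0.05 in edgeR's quasi-likelihood test over 14980 genes. In WT livers at 6 h, 7 of 10 passed as lower and 0 as higher, beside 18.5% and 18.9% of all genes tested, and their median difference was -1.21 (log2) beside 0.02 for all genes. In SIRT1intKO livers at 6 h, 5 of 10 passed as lower and 0 as higher, beside 17.6% and 20.9% of all genes, with a median of -0.56 beside 0.01. Gsta2, Gsta4, Gstm1, Gstp1 and Gclc passed in both genotypes, and Gstm2 and Gstm3 in WT; for none of them did the difference between genotypes at 6 h pass. The SIRT1intKO count was 3 without SIRT1intKO 0 h replicate 1 and 2 without SIRT1intKO 6 h replicate 1.

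At 24 h against 0 h the genes moved in both directions. Of the 9 genes other than Gsta1, 4 were lower and 0 higher in WT livers, beside 14.6% and 19.5% of all genes, whereas 3 were higher and 2 lower in SIRT1intKO livers, beside 26.2% and 24.0%. Gstp1 and Gsta2 were lower in both; Gsta4 and Gstm1 were lower in WT; Gstm2, Gstm3 and Nqo1 were higher in SIRT1intKO. From 6 to 24 h, 3 of 9 were higher and 0 lower in WT livers (10% and 6.44% of all genes) and 5 of 9 were higher and 0 lower in SIRT1intKO livers (13.2% and 14.4%). The livers at 24 h in these counts, and in the 24-hour tests of single genes below, are those on which the set was chosen. These tests are therefore no separate evidence on the set. Markers of other cells moved in the same comparison with 0 h: neutrophil markers were higher in 3 of 5 in WT and 5 of 5 in SIRT1intKO livers, monocyte and macrophage markers in 3 of 6 (2 lower) and 5 of 6, and cholangiocyte markers in 4 of 6 in both, while sinusoidal endothelium markers were lower in 4 of 5 in both and hepatocyte markers in 2 of 7 in both. Their part in the 24-hour values of the 10 genes was not tested. Without WT replicates 1 and 2 the WT count against 0 h was 2, Gsta4 (-1.87, adjusted p = 0.0258) and Gstp1 (-0.91, adjusted p = 0.0317), with Gsta2 at -2.05 (adjusted p = 0.0831) and Gstm1 at -0.82 (adjusted p = 0.226).

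**Figure D3:**
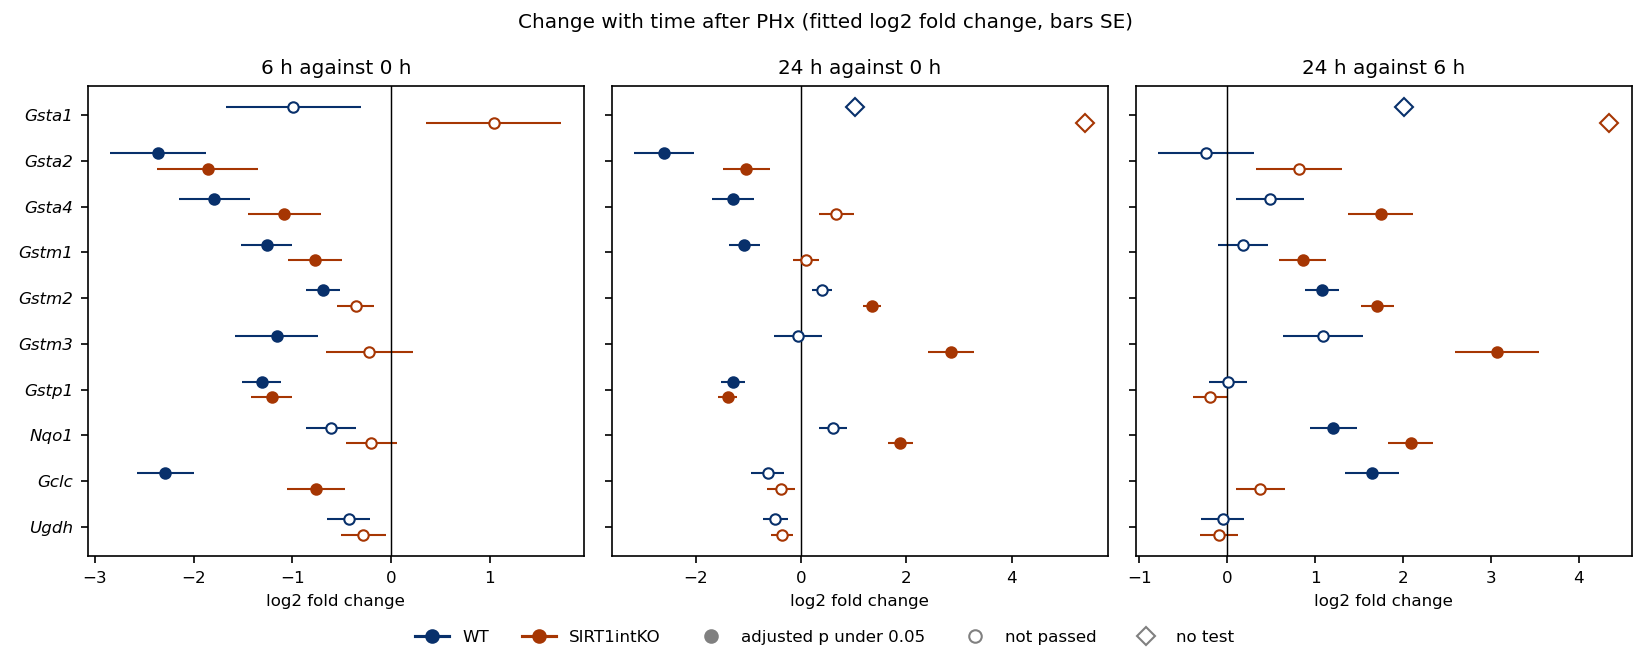
Fitted log2 fold changes (x axis) of the 10 genes between times in WT and SIRT1intKO livers, with bars for the standard error and filled points for an adjusted p under 0.05; Gsta1 is drawn with no test where 24-hour livers enter. In the 6-hour panel 7 WT and 5 SIRT1intKO points are filled and all lie below 0, and in the 24-hour panel against 0 h Gstm2, Gstm3 and Nqo1 lie above 0 in SIRT1intKO livers.

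Gsta2, the alpha-class neighbour of Gsta1, had another pattern at 24 h. It had 12.4 to 41.4 CPM (median 24.1) in WT and 11.7 to 30.5 (median 18.3) in SIRT1intKO livers at 0 h. At 6 h the WT livers had 0.784 to 14.9 CPM (median 3.02) and the SIRT1intKO livers 2.95, 2.04, 3.46, 9.71 and 7.97 CPM. At 24 h the WT livers had 2.95, 1.31, 4.92 and 6.92 CPM and the SIRT1intKO livers 5.14 to 14.3 (median 9.84). Most operated livers were below every unoperated liver, and the highest SIRT1intKO livers at 24 h reached the lower end of the 0-hour range. The fitted difference at 6 h against 0 h was -2.36 ± 0.485 SE in WT (adjusted p = 0.000282) and -1.86 ± 0.509 in SIRT1intKO livers (adjusted p = 0.00449), and at 24 h against 0 h it was -2.60 ± 0.572 in WT livers (adjusted p = 0.000878). The SIRT1intKO value at 24 h, -1.04 ± 0.44 with an adjusted p of 0.0493, passed the test narrowly and lost it in 17 of 43 alternative settings. Of the 100-base runs of Gsta2, 17.3% occur in Gm10639, 14.2% in Gsta1 and 6.62% in Gsta13.

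Gsta4, which acts on 4-hydroxynonenal and other products of lipid peroxidation, had 34.5 to 61.2 CPM (median 52.6) in WT and 31.4 to 57.2 (median 45.6) in SIRT1intKO livers at 0 h. It had 3.79 to 29.1 CPM (median 14.5) in WT livers at 6 h and 8.91, 16.4, 38.5, 22.6 and 19 CPM in SIRT1intKO livers. At 24 h the WT livers had 40.4, 13.6, 12.7 and 14.6 CPM and the SIRT1intKO livers 40.8 to 113 (median 68.1). Every SIRT1intKO liver at 24 h was above every WT liver, although WT replicate 1 came within 1 CPM of the lowest. At 6 h Gsta4 fell, with values of -1.79 ± 0.357 in WT (adjusted p = 0.000199) and -1.08 ± 0.371 in SIRT1intKO livers (adjusted p = 0.0214; 0.0555 without SIRT1intKO 6 h replicate 1). It was lower at 24 h than at 0 h in WT livers, at -1.30 ± 0.403 (adjusted p = 0.013; 0.0651 without WT 24 h replicate 2 and 0.148 without the 3 livers apart). In SIRT1intKO livers it rose from 6 to 24 h by 1.75 ± 0.37 (adjusted p = 0.000857), without passing against 0 h (0.67 ± 0.334, adjusted p = 0.0936). The set was chosen on these 24-hour livers.

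Among the mu class, Gstm1 had 962 to 1350 CPM (median 1070) in WT and 698 to 1100 (median 813) in SIRT1intKO livers at 0 h. At 6 h it had 233 to 930 CPM (median 417) in WT livers and 239, 325, 701, 707 and 534 CPM in SIRT1intKO livers. At 24 h the WT livers had 504, 329, 630 and 608 CPM and the SIRT1intKO livers 663 to 1030 (median 1010). Both genotypes were lower at 6 h, and at 24 h the SIRT1intKO livers overlapped their 0-hour range while the WT livers stayed below theirs. Gstm1 fell at 6 h, with values of -1.26 ± 0.261 in WT (adjusted p = 0.000305) and -0.77 ± 0.273 in SIRT1intKO livers (adjusted p = 0.0254; 0.0587, 0.0671 and 0.0682 without SIRT1intKO 0 h replicate 1, 6 h replicate 1 and 6 h replicate 2). At 24 h against 0 h it was lower in WT livers (-1.08 ± 0.297, adjusted p = 0.00581) and was at 0.09 ± 0.248 in SIRT1intKO livers (adjusted p = 0.778). From 6 to 24 h it rose in SIRT1intKO livers by 0.86 ± 0.267 (adjusted p = 0.0162; 0.0531 without SIRT1intKO 6 h replicate 1).

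Gstm2, another mu-class enzyme, rose from 6 to 24 h in both genotypes. It had 55.3 to 87.7 CPM (median 71.3) in WT and 43.3 to 73.9 (median 56.8) in SIRT1intKO livers at 0 h, and 37.8 to 51.9 (median 45.4) in WT livers and 37.1, 26.6, 58.8, 65.0 and 45.3 CPM in SIRT1intKO livers at 6 h. At 24 h the WT livers had 110, 78.6, 96.0 and 96.0 CPM and the SIRT1intKO livers 97.1 to 204 (median 161). In both genotypes all 24-hour livers were above all 6-hour livers. The rise from 6 to 24 h, in the 24-hour livers that chose the set, was 1.08 ± 0.193 in WT (adjusted p = 0.000353) and 1.71 ± 0.187 in SIRT1intKO livers (adjusted p = 1.9e-07). Against 0 h, the 24-hour value rose by 1.35 ± 0.173 in SIRT1intKO livers (adjusted p = 3.08e-07) and was at 0.39 ± 0.193 in WT livers (adjusted p = 0.118), and the 6-hour value was -0.69 ± 0.176 in WT livers (adjusted p = 0.00248).

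Gstm3 showed the next largest 24-hour level difference after Gsta1. It had 52.3 to 82.1 CPM (median 63.4) in WT and 35.7 to 62.4 (median 46.0) in SIRT1intKO livers at 0 h, and 7.84 to 68.2 (median 23.6) in WT and 15.4, 12.2, 88.7, 46.4 and 39.6 CPM in SIRT1intKO livers at 6 h. At 24 h the WT livers had 84.5, 29.6, 74.4 and 58.0 CPM, and the 7 SIRT1intKO livers had 134, 187, 323, 475, 231, 692 and 330 CPM. All 7 were above every other liver of the series. In SIRT1intKO livers at 24 h, which are among those that chose the set, Gstm3 rose by 2.85 ± 0.436 against 0 h (adjusted p = 4.3e-06) and by 3.07 ± 0.475 against 6 h (adjusted p = 2.82e-05). In WT livers the values were -0.06 ± 0.464 (adjusted p = 0.927) and 1.09 ± 0.459 (adjusted p = 0.0999). At 6 h Gstm3 was lower than at 0 h in WT livers, at -1.16 ± 0.422 (adjusted p = 0.0299), a call lost without WT 0 h replicate 2 (adjusted p = 0.0568) and without WT 6 h replicates 1, 4, 5 or 6 (0.0513, 0.0659, 0.0687 and 0.0593). Gstm3 shares 2.15% of its 100-base runs with Gstm6 and 1.65% with Gstm1, so copies bear on it far less than on Gsta1.

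Gstp1, the pi-class transferase, was lower after PHx in both genotypes and at both times. It had 2780 to 4380 CPM (median 3410) in WT and 3110 to 5360 (median 3710) in SIRT1intKO livers at 0 h, and 1040 to 1640 (median 1530) in WT and 1280, 1330, 2150, 1950 and 1640 CPM in SIRT1intKO livers at 6 h. At 24 h it had 1120, 860, 1910 and 1810 CPM in WT and 1000 to 2060 (median 1390) in SIRT1intKO livers. No operated liver reached the lowest unoperated liver of its genotype. The fitted values at 6 h were -1.31 ± 0.197 in WT (adjusted p = 5.18e-06) and -1.21 ± 0.209 in SIRT1intKO livers (adjusted p = 3.83e-05). At 24 h against 0 h they were -1.30 ± 0.226 (adjusted p = 7.55e-05) and -1.40 ± 0.188 (adjusted p = 6.35e-07). Of its 100-base runs 38.4% also occur in Gstp2.

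Nqo1, which reduces quinones by transferring 2 electrons, was a low-count gene at 2.89 ± 0.423 CPM (n = 6) in WT and 2.72 ± 0.853 (n = 6) in SIRT1intKO livers at 0 h. It had 1.46 to 2.81 CPM (median 1.63) in WT livers and 2.05, 2.46, 2.83, 2.12 and 2.34 CPM in SIRT1intKO livers at 6 h. At 24 h it had 4.80, 2.34, 5.55 and 4.88 CPM in WT livers and 4.60 to 16.7 (median 10.6) in SIRT1intKO livers. The SIRT1intKO 24 h livers were all above the 0-hour and 6-hour livers of their genotype, and the lowest of them, replicate 5, lay among the WT 24 h livers. Nqo1 rose from 6 to 24 h by 1.21 ± 0.269 in WT (adjusted p = 0.00253) and by 2.09 ± 0.257 in SIRT1intKO livers (adjusted p = 1.35e-06). Against 0 h it rose by 1.88 ± 0.237 in SIRT1intKO livers (adjusted p = 2.53e-07), with 0.60 ± 0.264 in WT livers (adjusted p = 0.0772). The 24-hour livers in these tests are those that chose the set.

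Gclc, the rate-limiting subunit of glutathione synthesis, had its low point in WT livers at 6 h. It had 155 to 223 CPM (median 206) in WT and 133 to 230 (median 182) in SIRT1intKO livers at 0 h. The WT livers at 6 h had 56.9, 36.9, 31.1, 33.2, 46.1 and 42.3 CPM and the SIRT1intKO livers 42.4, 126, 242, 57.7 and 72.0 CPM. Of the 5 SIRT1intKO livers, 4 lay above all 6 WT livers and replicate 3 was above every 0-hour liver, while replicate 1 lay inside the WT range. At 24 h the WT livers had 194, 79.4, 124 and 118 CPM and the SIRT1intKO livers 95.9 to 196 (median 131), which overlap. In WT livers Gclc was lower at 6 h than at 0 h (-2.29 ± 0.289, adjusted p = 3.33e-07) and rose from 6 to 24 h by 1.65 ± 0.305 (adjusted p = 0.000467). In SIRT1intKO livers the 6-hour value was -0.76 ± 0.292 (adjusted p = 0.039), a call lost in 8 alternative settings, with adjusted p values of 0.0524 to 0.106, among them leaving out SIRT1intKO 0 h replicates 1, 2 or 3 or SIRT1intKO 6 h replicates 1, 4 or 5.

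Ugdh, which makes UDP-glucuronic acid for glucuronidation, passed in no comparison. It had 109 to 162 CPM (median 150) in WT and 116 to 183 (median 149) in SIRT1intKO livers at 0 h, 71.8 to 141 (median 108) in WT and 103, 89.0, 121, 161 and 135 CPM in SIRT1intKO livers at 6 h, and 114, 33.3, 139 and 123 CPM in WT and 90.8 to 150 (median 102) in SIRT1intKO livers at 24 h. The groups overlapped throughout, and WT 24 h replicate 2 was the lowest liver. Its fitted values against 0 h ran from -0.49 ± 0.244 (WT at 24 h, adjusted p = 0.121; -0.93 and adjusted p = 0.0098 without the 3 livers apart) to -0.28 ± 0.226 (SIRT1intKO at 6 h, adjusted p = 0.34).

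Side by side at 24 h, with no test, the fitted differences of SIRT1intKO against WT were 3.72 for Gsta1, 2.46 for Gstm3, 1.80 for Gsta4, 1.19 for Gsta2, 1.19 for Nqo1, 0.81 for Gstm1, 0.68 for Gstm2, 0.17 for Ugdh, 0.12 for Gclc and 0.04 for Gstp1. All 10 were above 0 and 5 were above 1, a size that 4.86% of all genes passed. The 3 smallest did not keep their sign: without WT replicate 2, Gstp1 was at -0.14, Ugdh at -0.13 and Gclc at -0.06, and Gstp1 was also below 0 without WT replicate 1 (-0.08), SIRT1intKO replicate 1 (-0.01) or SIRT1intKO replicate 2 (-0.07). In Gsta1, Gsta4, Gstm1 and Gstm3 every SIRT1intKO liver was above every WT liver, in Gsta1 by a margin too small to show at 3 digits. The shares of all genes above 0 or without overlap were not counted. The sign and the lack of overlap therefore only describe the 10 genes. Gsta2 and Nqo1 are the members just past a log2 value of 1, and Gstm1 the nearest below it. Over the alternative settings other than leaving out 1 library, Gsta2 ran from 0.64 to 2.07, Nqo1 from 0.94 to 1.63 and Gstm1 from 0.55 to 1.18. The number above 1 was 6 without the 3 livers apart and 3 without WT replicates 1 and 2, and in the latter setting Gstp1 was at -0.35 and Ugdh at -0.19.

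**Figure D4:**
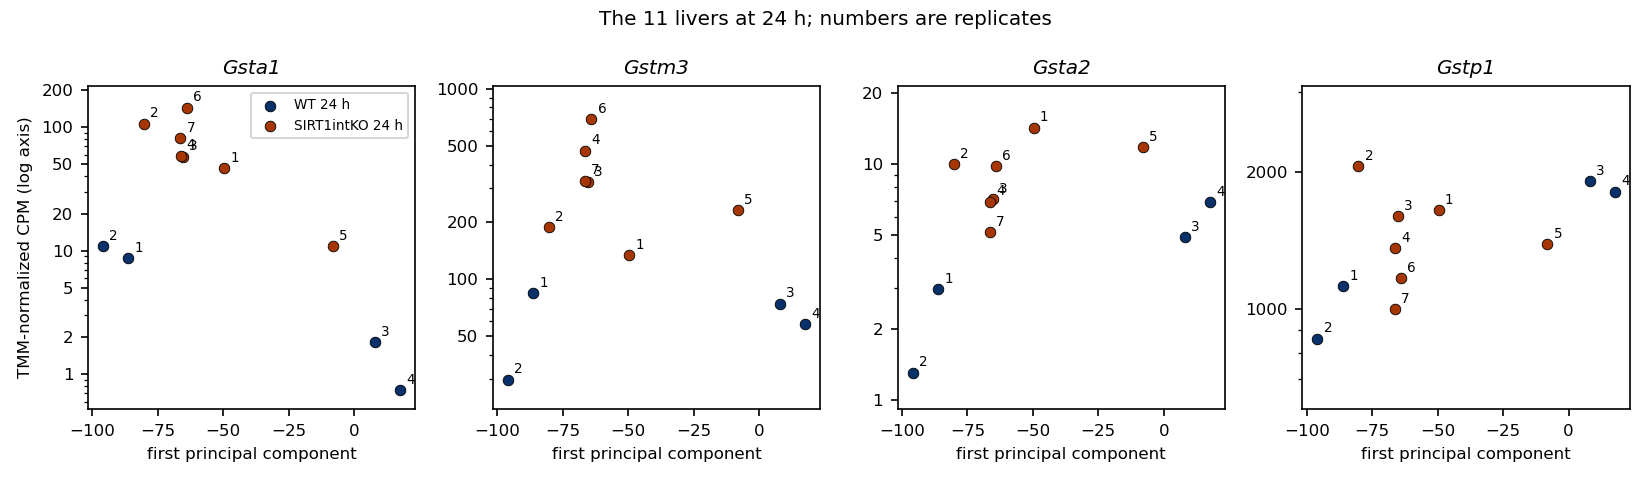
TMM-normalized CPM (log axis) of Gsta1, Gstm3, Gsta2 and Gstp1 in the 11 livers at 24 h against their position on the first principal component of all genes, labelled by replicate. WT replicates 1 and 2 lie on the side of most SIRT1intKO livers and have 8.67 and 10.9 CPM of Gsta1, above 1.83 and 0.747 CPM in WT replicates 3 and 4.

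Cell type markers also moved between the 24-hour groups. The 7 hepatocyte markers summed to 28400 to 40200 CPM (median 32400) in WT and 37000 to 70400 (median 50400) in SIRT1intKO livers, with Alb the marker that passed the test (0.85, adjusted p = 0.0278). The 6 monocyte and macrophage markers summed to 35.4 to 60.2 CPM (median 50.1) and 44.3 to 208 (median 98.0), and Ccr2 (1.59, adjusted p = 0.0147) and Lyz2 (1.73, adjusted p = 0.00949) passed; the 5 Kupffer cell markers had medians of 82.4 and 138 CPM, and Marco passed (2.28, adjusted p = 0.0179). The intestinal gene Fabp2 passed (1.46, adjusted p = 0.0279), with 23.2 to 51.7 CPM in WT and 41.7 to 307 in SIRT1intKO livers, and Lgals4 did not (-0.31, adjusted p = 0.587). Neutrophil markers (medians 51.4 and 82.1) and cholangiocyte markers (172 and 147) had no gene that passed. Their part in the differences of Gsta1 and the other genes was not tested. In bulk tissue, fewer cells of a type and less RNA per cell cannot be told apart. The hepatocyte sums were 62300 to 72700 CPM in WT livers at 0 h and 30800 to 65400 at 6 h, and 55300 to 78800 and 45200 to 60400 in SIRT1intKO livers, and 2 of the 7 markers passed as lower at 6 h in WT and 1 in SIRT1intKO livers; their part in the lower 6-hour values was not tested either.

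Before and at 6 h after PHx the genotypes could not be separated by the test. In SIRT1intKO against WT, 0 of 10 genes passed at 0 h and 0 at 6 h, and 0 differed between genotypes in their change from 0 to 6 h, and in each of these comparisons 0.0% of all genes passed edgeR's test. At an unadjusted p under 0.05 there were 161, 976 and 456 genes in all and 0, 1 and 2 of the 10. DESeq2 called 1 gene higher and 5 lower at 0 h, 8 higher and 1 lower at 6 h, and 2 higher and 0 lower in the change. The gene among the 10 that DESeq2 called was Gclc at 6 h (1.38, adjusted p = 0.00669). In edgeR Gclc was at 1.39 ± 0.291 (unadjusted p = 3.7e-05, adjusted p = 0.185; 0.013 without SIRT1intKO 6 h replicate 1 and 0.0331 without replicate 4), higher in 4 of 5 SIRT1intKO livers than in all WT livers. Its difference between genotypes in the change from 0 to 6 h was 1.53 ± 0.4 (unadjusted p = 0.000581, adjusted p = 1), and that of Gsta1 2.04 ± 0.97 (unadjusted p = 0.0435, adjusted p = 1).

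The rest of the pathway was taken from 7 lists of 86 genes that hold no member, of which 82 passed the filter. These lists were written with earlier results of these data known. Gsta13 is left out of the counts here, which leaves 81. At 6 h against 0 h, 9 were higher and 31 lower in WT (18.9% and 18.5% of all genes) and 14 higher and 21 lower in SIRT1intKO livers (20.9% and 17.6%). At 24 h against 0 h the counts were 15 higher and 21 lower in WT (19.5% and 14.6% of all genes), and 27 higher and 17 lower in SIRT1intKO livers (26.2% and 24.0%). From 6 to 24 h, 12 were higher and 1 lower in WT (10% and 6.44%), and 25 higher and 7 lower in SIRT1intKO livers (13.2% and 14.4%). Medians were -0.30, -0.17, -0.27, 0.11, 0.13 and 0.38 in that order, and -0.01 to 0.04 for all genes. Both WT totals at 24 h moved with the setting, here counted with Gsta13: 36 against 0 h became 9 without WT 24 h replicates 1 and 2, and 14 against 6 h became 39 without the 3 livers apart, 9 with a replicate block and 6 with only the groups compared.

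The other glutathione transferases included both directions. Gsta3, another alpha-class gene, had 1330 ± 55.6 CPM (n = 6) in WT and 1120 ± 167 (n = 6) in SIRT1intKO livers at 0 h and 232 ± 215 (n = 4) and 190 ± 74.5 (n = 7) at 24 h. Its values at 24 h against 0 h were -2.52 ± 0.524 in WT (adjusted p = 0.000506) and -2.57 ± 0.423 in SIRT1intKO livers (adjusted p = 1.2e-05), with no overlap of livers in either. The microsomal transferase Mgst3 also fell at 6 h, at -1.81 in WT (adjusted p = 0.000205) and -1.92 in SIRT1intKO livers (adjusted p = 0.000254), as did Gstm6 in WT livers (-1.28, adjusted p = 0.000264). The theta-class Gstt3 was higher at 24 h than at 0 h in both (1.92 in WT, adjusted p = 0.00161, and 1.72 in SIRT1intKO, adjusted p = 0.000894). Of the 16 tested without Gsta13, 2 were higher and 7 lower in WT (19.5% and 14.6% of all genes), and 3 higher and 8 lower in SIRT1intKO livers (26.2% and 24.0%) at 24 h against 0 h.

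Nfe2l2, which encodes NRF2, had 36.4 ± 4.89 CPM (n = 6) in WT and 36.4 ± 6.04 (n = 6) in SIRT1intKO livers at 0 h, 23.1 ± 2.7 (n = 6) and 28.8 ± 8.88 (n = 5) at 6 h, and 29.5 ± 8.24 (n = 4) and 49.6 ± 13.6 (n = 7) at 24 h. It was lower at 6 h than at 0 h in WT livers (-0.65 ± 0.184, adjusted p = 0.00575) and rose from 6 to 24 h in SIRT1intKO livers by 0.79 ± 0.189 (adjusted p = 0.00255). Keap1, its inhibitor, kept within 32.4 to 59.1 CPM in all livers and passed only from 6 to 24 h in WT livers (0.29, adjusted p = 0.0369). Of the small MAF partners, Maff (2.10, adjusted p = 0.000243) and Mafk (1.12, adjusted p = 1.38e-05) were higher at 24 h than at 0 h in SIRT1intKO livers, Mafk (0.56, adjusted p = 0.038) also in WT livers, and Mafg fell at 6 h (-0.95, adjusted p = 0.00149) and rose from 6 to 24 h (1.24, adjusted p = 0.00103) in WT livers. Of these 10 regulators, 5 were higher and 0 lower in SIRT1intKO (26.2% and 24.0% of all genes) and 1 higher and 0 lower in WT livers (19.5% and 14.6%) at 24 h against 0 h.

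Of 8 tested genes of glutathione synthesis and recycling, 5 were higher and 0 lower in WT, and 4 higher and 1 lower in SIRT1intKO livers at 24 h against 0 h, beside the same shares of all genes. The cystine transporter Slc7a11 was at 0.0817 ± 0.0754 CPM (n = 6) in WT livers and 0.0109 ± 0.0268 (n = 6) in SIRT1intKO livers at 0 h and at 2.2 ± 2.83 (n = 4) and 3.32 ± 2.53 (n = 7) at 24 h (adjusted p = 0.000602 and 6.73e-06). Glutathione reductase, Gsr, rose from 6 to 24 h by 1.11 ± 0.182 in WT (adjusted p = 0.000137) and 1.16 ± 0.172 in SIRT1intKO livers (adjusted p = 1.92e-05), with no overlap of livers in either. Gclm, the partner subunit of Gclc, was at -0.74 ± 0.183 in WT livers at 6 h (adjusted p = 0.00187) and at -0.27 ± 0.191 in SIRT1intKO livers (adjusted p = 0.28).

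The 21 further antioxidant and quinone targets of NRF2 moved in both directions. At 24 h against 0 h, 2 were higher and 4 lower in WT (19.5% and 14.6% of all genes), and 9 higher and 1 lower in SIRT1intKO livers (26.2% and 24.0%). Srxn1, which repairs oxidized peroxiredoxins, had 27.5 ± 4.76 CPM (n = 6) in WT and 31.2 ± 7.44 (n = 6) in SIRT1intKO livers at 0 h and 77.8 ± 41.5 (n = 4) and 177 ± 49.6 (n = 7) at 24 h, a rise of 1.50 ± 0.342 in WT (adjusted p = 0.00124) and 2.51 ± 0.32 in SIRT1intKO livers (adjusted p = 3.05e-07). The heme oxygenase Hmox1 rose by 1.66 ± 0.5 (adjusted p = 0.0108) and 2.47 ± 0.468 (adjusted p = 7.13e-05). Cyp2a5 was among the 4 that were lower in WT livers at 24 h against 0 h, at -2.08 (edgeR adjusted p = 0.0036). The thioredoxin reductase Txnrd1 was at 0.38 ± 0.206 in WT (adjusted p = 0.157) and rose by 0.54 ± 0.181 in SIRT1intKO livers (adjusted p = 0.0139). Osgin1 was lower at 6 h in WT livers (-4.18 ± 0.675, adjusted p = 1.36e-05), from 238 to 533 CPM at 0 h to 10.1 to 46.6 CPM, while the SIRT1intKO livers at 6 h ran from 13.2 to 601 CPM (-1.09 ± 0.633, adjusted p = 0.177).

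In SIRT1intKO against WT at 24 h, in the same livers on which the 10 genes were chosen, 10 of the 81 pathway genes without Gsta13 were higher and 2 lower, beside 2.3% and 3.51% of all genes. Because the lists were written with earlier results of these data known, these counts and the values below are no separate evidence on the pathway. Nfe2l2 was higher by 0.75 ± 0.203 (adjusted p = 0.0272), Srxn1 by 1.19 ± 0.35 (adjusted p = 0.0403), the bile acid and conjugate exporter Abcc3 by 1.45 ± 0.403 (adjusted p = 0.03), Akr1b8 by 1.11 ± 0.317 (adjusted p = 0.0338) and the transferase Gstt1 by 0.60 ± 0.174 (adjusted p = 0.0377), and Gstm7 (-0.85, adjusted p = 0.049) and the glutaredoxin Glrx (-1.21, adjusted p = 0.0329) were lower. Gclm was at 0.36 (adjusted p = 0.28), Hmox1 at 0.62 (adjusted p = 0.476), Txnrd1 at 0.18 (adjusted p = 0.626), Keap1 at -0.09 (adjusted p = 0.615) and Gsta3 at -0.29 (adjusted p = 0.739). Counted with Gsta13, the total of 13 fell to 0 in a fit with only these livers, and was 5 to 19 when 1 liver was left out, 21 without the 3 livers apart and 24 without WT replicates 1 and 2. None of the 81 passed edgeR's test in the genotype comparisons at 0 h and 6 h or in the change from 0 to 6 h, where 0, 15 and 7 had an unadjusted p under 0.05; with Gsta13 counted, DESeq2 called 1 of them at 6 h.

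Over the 34 livers, Gsta1 was most like Gsta13 among 12376 genes that are no members (Pearson r of log2 CPM 0.957), followed by Prkca (0.907), Anxa5 (0.903), Rras (0.893) and Slc51b (0.889). In the 23 livers without the 24-hour groups these were 0.790, 0.629, 0.583, 0.750 and 0.759. Of the read-length runs of Gsta1, 71.3% also occur in Gsta13, so the levels of Gsta1 and Gsta13 are not separate measurements. The part of shared reads in the r with Gsta13, and in its first rank, was not tested. Among the set itself, r with Gsta1 was 0.82 for Nqo1, 0.80 for Gstm3, 0.77 for Gstm2, 0.61 for Gsta4, 0.35 for Gstm1, 0.30 for Gclc, 0.04 for Gsta2, -0.28 for Ugdh and -0.32 for Gstp1. These values describe the same libraries, share the group differences given above and have no test.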

How the data were processed

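Livers were profiled with stranded mRNA libraries and paired 100-base reads. The authors trimmed reads, aligned them with STAR and estimated counts with Salmon through nf-core/rnaseq at its default settings; the submitters' processing notes name GRCm39, and the annotation and tool versions are not given in the sources used here. The deposited values are expected counts (estimated counts) per gene, 4.97% of them not whole, and were rounded here. Of 35 columns, 34 matched a library name in the labels and 1 matched none and was not used; whether it is a further liver of a group here was not established. Symbols in the table lack the letter x, and 1316 were restored through gene identifiers, 17 of them in the gene lists. The 34 libraries were taken as separate animals per the labels, and no 2 libraries of the same group agreed within sampling noise. Pairs across groups were not checked.

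Counts were scaled by TMM and fitted with edgeR 4.0.16 (R 4.3.3; quasi-likelihood test, filterByExpr, 1 mean per group of genotype and time, all 34 libraries, 14980 genes; the common biological coefficient of variation was 0.302). A gene passed at a Benjamini-Hochberg adjusted p under 0.05 over all genes tested; the study also asked for a log2 fold change beyond 1. The study's tool, DESeq2 (here 1.42.0), was run as an alternative. Log2 CPM used a prior count of 2. Only the edgeR and DESeq2 fits were tested on simulated counts. The depth, 14892122 to 23480492 counts, limits Gsta1 below 24 h, where a library held 4 to 159 reads assigned to it. It also limits Gsta1 in the WT livers at 24 h, with 15 to 190 reads a library.

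Members and lists were chosen with earlier results of these data known. Named pathway genes were Nfe2l2, Keap1, Gclm, Txnrd1, Srxn1, Hmox1 and Gsta3, and per list and comparison up to 3 genes that passed with the largest change and a mean of at least 1 CPM. Promoters came from RefSeq for GRCm38.p6, and shared 100-base runs from GENCODE vM21 transcripts, another build than the counts. Alternatives were other scalings and filters, DESeq2, a replicate block, only the groups compared, summed copies, and each library left out. Left out after seeing the data were the 3 livers apart at 24 h, and WT 24 h replicates 1 and 2; summing Gsta13 was also chosen then.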

Additional observations from a re-analysis of the deposited data

Results flagged for a closer look

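In 60 groups of 4 to 7 livers, 10 genes by 6 groups, 6 livers stood apart from the rest of their group by a gap too wide for Dixon's 95% limit, where chance alone gives about 1 in 20 groups; 5 were the highest of their group and 1 the lowest. Gsta1 in WT 0 h replicate 2 was at 5.98 CPM, with the next liver at 3.10. Gsta2 in WT 6 h replicate 2 was at 14.9 CPM, with the next at 5.67, and Gstm1 in the same liver was at 930 CPM, with the next at 489. Gsta4 in WT 24 h replicate 1 was at 40.4 CPM, with the next at 14.6. Gstp1 in SIRT1intKO 0 h replicate 5 was at 5360 CPM, with the next at 3890. Gclc in WT 0 h replicate 6 was the lowest at 155 CPM, with the next at 202.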

How the results depend on the processing

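Of 4470 values of single genes under an alternative setting, 4341 kept their direction and their side of the threshold, 39 lost a call, 38 gained one, 44 changed sign and 8 moved by more than the spread; for the untested 24-hour genotype values only moves beyond the spread were counted, and their sign changes are given last. When 1 library was left out, the number of the 10 genes that passed was 6 to 9 for WT 6 h against 0 h, 2 to 5 for SIRT1intKO 6 h, 4 to 5 for WT 24 h, 4 to 6 for SIRT1intKO 24 h, 3 to 4 for WT 24 h against 6 h, 4 to 6 for SIRT1intKO 24 h against 6 h and 0 to 1 for SIRT1intKO against WT at 6 h, and the number beyond a log2 value of 1 at 24 h was 3 to 5. For pathway genes, counted with Gsta13, the ranges were 36 to 42, 29 to 39, 24 to 40, 41 to 49, 10 to 17, 24 to 38 and 0 to 1, and 5 to 19 for SIRT1intKO against WT at 24 h. Values short of the threshold that changed sign when 1 library was left out ranged, for WT 24 h against 0 h, from -0.25 to 0.17 (Gstm3); for WT 24 h against 6 h, from -0.64 to 0.59 (Gsta2), -0.06 to 0.85 (Gsta4), -0.14 to 0.20 (Gstp1) and -0.22 to 0.25 (Ugdh); for SIRT1intKO 24 h against 6 h, from -0.17 to 0.05 (Ugdh); between genotypes at 0 h, from -0.23 to 0.01 (Nqo1) and -0.02 to 0.11 (Ugdh), and at 6 h, from -0.23 to 0.94 (Gsta2), -0.04 to 0.47 (Gstm1), -0.11 to 0.19 (Gstm2) and -0.02 to 0.94 (Gstm3); and between genotypes in the change from 0 to 6 h, from -0.01 to 0.20 (Gstp1). With DESeq2 1 of the 10 genes and 1 pathway gene passed at 6 h between genotypes, and 1 pathway gene with every gene of at least 1 count kept; that filter gave 7 pathway genes at 24 h between genotypes.

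The replicate numbers do not pair livers (median correlation of deviations between same-numbered livers -0.0039 over 76 pairs), and a replicate block gave 9 pathway genes for WT 24 h against 6 h, 7 for SIRT1intKO against WT at 24 h, and lost Gsta2 in SIRT1intKO at 24 h against 0 h (-0.94, adjusted p = 0.117); other counts stayed within 1.5 times. Only the groups compared gave 6 and 0 pathway genes in the former 2 comparisons. Without the 3 livers apart these were 39 and 21, with Gstm1 at -0.12 and Gstp1 at -0.51 for WT 24 h against 6 h. Without WT 24 h replicates 1 and 2, WT 24 h against 0 h had 2 of the 10 genes and 9 pathway genes, 3 genes lay beyond 1 and 24 pathway genes passed between genotypes at 24 h; Gsta1 was at -1.07 and Gstm3 at 0.04 against 0 h, and Gsta1 at -0.08, Gsta2 at 0.31, Gsta4 at -0.08 and Ugdh at 0.30 against 6 h. With Gsta1 and Gsta2 summed the joint value was -1.24 for SIRT1intKO 6 h and -1.52 for WT 24 h against 0 h, and with Gsta13 added -0.93 and -1.0. Under upper-quartile scaling Gstp1 was at -0.0037 for WT 24 h against 6 h and Gstm2 at -0.02 for SIRT1intKO against WT at 6 h. Between genotypes at 24 h, with no test, Gstp1 was at -0.14 to 0.19, Gclc at -0.06 to 0.37 and Ugdh at -0.13 to 0.33 when 1 library was left out, and Gstp1 was at -0.35 and Ugdh at -0.19 without WT replicates 1 and 2. The cause of these changes was not tested.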

Other observations

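Enzymes that supply NADPH, the electron source of glutathione reductase and Nqo1, included 2 higher and 2 lower of 7 at 24 h against 0 h in SIRT1intKO livers (26.2% and 24.0% of all genes) and 1 higher and 2 lower in WT livers (19.5% and 14.6%). Pgd, of the pentose phosphate pathway, was higher in both, by 1.32 (edgeR adjusted p = 2.56e-05) in SIRT1intKO and 1.02 (adjusted p = 0.00289) in WT livers. G6pdx, the entry enzyme of that pathway, was higher in SIRT1intKO livers against 0 h by 0.91 (adjusted p = 0.00211) and against WT livers at 24 h by 1.19 (adjusted p = 0.0147). In a fit with only the groups compared, G6pdx did not pass between genotypes at 24 h.

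Of the 8 genes around glucuronic acid, where Ugdh stands, 6 were lower and 1 higher in both genotypes at 6 h, beside 18.5% and 18.9% of all genes in WT and 17.6% and 20.9% in SIRT1intKO livers. Pgm2 was the higher one, by 1.27 in WT (adjusted p = 0.00105) and 1.26 in SIRT1intKO livers (adjusted p = 0.00184), and the glucuronosyltransferase Ugt2b35 was at -2.04 (adjusted p = 9.03e-06) and -1.48 (adjusted p = 0.000839). At 24 h Ugt1a9 was lower than at 0 h, at -2.22 in WT (adjusted p = 0.000876) and -2.63 in SIRT1intKO livers (adjusted p = 4.18e-06), whereas Ugp2 (0.66, adjusted p = 0.033) and Ugt1a1 (0.83, adjusted p = 0.0377) were higher in SIRT1intKO than in WT livers. Among 11 genes of xenobiotic receptors and their targets, Cyp1a2 was lower at 24 h than at 0 h. It was at -3.86 in WT (adjusted p = 3.42e-06) and -3.66 in SIRT1intKO livers (adjusted p = 4.34e-08). Cyp2b10 was higher by 1.75 (adjusted p = 0.0437) and 3.37 (adjusted p = 0.000157), and Tiparp by 2.89 (adjusted p = 0.00101) and 2.83 (adjusted p = 0.000329). Cyp3a11 was higher in SIRT1intKO than in WT livers at 24 h by 1.50 (adjusted p = 0.0237). With only the groups compared, Ugp2, Ugt1a1 and Cyp3a11 did not pass between genotypes at 24 h, and neither did any other gene of the pathway lists.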
